A study of Homo sapiens with 9 samples.

Results

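Genes of the cilium, the axonemal dynein arms and the centrosome were followed in HEK293 cells, a human embryonic kidney line, in which AMOT or YAP1 transcripts had been lowered by short hairpin RNA. The genes were chosen by name alone. Their symbols start with CFAP (cilia- and flagella-associated proteins), DNAH, DNAI or DNAL (heavy, intermediate and light chains of axonemal dyneins), DYNC2 (subunits of the ciliary transport motor), IFT (intraflagellar transport), BBS (Bardet-Biedl syndrome proteins) or CEP (centrosomal proteins). Of 91 such genes with a named probe, 90 were tested, with 119 of their 120 probes, among 11493 named genes and 22375 tested probes in all. They comprised 20 CFAP genes, 3 DNAH genes, 5 DNAI or DNAL genes, 4 DYNC2 genes, 17 IFT genes, 7 BBS genes and 34 CEP genes. A probe was tested when its detection p-value, which sets its signal against those of negative control beads, fell under 0.05 in 3 or more of the 9 arrays. CFAP45 was the named member that did not pass, with detection on 1 array. Symbols were available only for probes among the 20062 of the authors' series matrix, out of 47231 deposited probes. Genes of these families without a named probe there could not be looked up. BBS9 (probe ILMN_2352159), CEP126 and IFT140 passed on exactly 3 arrays.

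Total RNA was measured on 9 Illumina bead arrays, 3 for each of 3 groups: wild-type HEK293 cells, HEK293 cells with Amot shRNA and HEK293 cells with Yap shRNA. Per the design text the 3 samples of a group came from separate experiments. The sample titles name the hairpin groups knockouts and the design text names them knockdowns, the word used here, and their cells are called AMOT-depleted and YAP-depleted. The labels list wild-type cells and no non-targeting hairpin as the control, and they give neither the number of hairpins per target nor whether a line was a clone, so anything a vector or a line brings with it cannot be told apart from the loss of the target. AMOT (angiomotin) is a junctional scaffold that binds YAP, and YAP is a transcriptional coactivator of the Hippo pathway.

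A cilium is built on a basal body, a centriole docked at the membrane, and its microtubule core is the axoneme. Motile axonemes carry outer and inner dynein arms, which HEK293 cells are not known to assemble, whereas most cultured cells can form a primary cilium, which lacks the arms. Intraflagellar transport carries building material in both directions along the axoneme, and the BBSome, a coat-like complex, moves membrane proteins in and out. CEP proteins serve the centrosome in dividing cells as well as the basal body.

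AMOT was at log2 levels of 14.33, 14.32 and 14.21 in the controls and of 9.94, 10.05 and 10.21 in AMOT-depleted cells, and YAP1 was at 10.63, 10.71 and 10.64 in the controls and at 8.79, 8.79 and 8.93 in YAP-depleted cells. AMOT was also lower in YAP-depleted cells, at 13.66, 13.72 and 13.76 (-0.57, limma, adjusted p = 0.0017). YAP1 was at 10.48, 10.52 and 10.74 in AMOT-depleted cells (-0.08, adjusted p = 0.57). The log2 level is the background-corrected, quantile-normalised intensity of a probe. It compares samples and not probes. Between 19831 and 20397 probes were detected on a control array, 20827 to 22187 on an AMOT knockdown array and 20866 to 21709 on a YAP knockdown array. Of the 120 member probes, 105 to 109 were detected on a control array, 110 to 116 on an AMOT knockdown array and 114 to 116 on a YAP knockdown array. All 6 knockdown arrays therefore stood above the 3 controls in both counts, and the part of this difference in the rise of dim probes was not tested. Of 9 genes reported for HEK293 cells, the 6 that were measured (CDH2, EYA1, INA, NEFL, NEFM and VIM) were detected on all arrays. Of these 6, EYA1 (0.64), INA (0.78) and VIM (0.87) were higher and NEFM (-0.94) lower in AMOT-depleted cells, and INA (1.36) and NEFM (0.53) were higher in YAP-depleted cells. Of 12 markers of multiciliated cells, 2 were measured and neither was called: the cyclin-like CCNO ranged from 9.21 to 9.31 in the controls, 9.41 to 9.73 in AMOT-depleted cells and 8.95 to 9.37 in YAP-depleted cells, and the tektin TEKT1 from 5.74 to 6.45, 6.0001 to 6.39 and 6.29 to 6.48. FOXJ1, the main transcription factor of motile ciliogenesis, was among the markers without a named probe, so its level was not read. Of 14 markers of blood, vascular, stromal and glial cells, 2 were measured. Both lay near the end of detection, at 5.77 to 5.99 on this scale: COL1A1 was not called, and LUM rose by 0.73 in AMOT-depleted cells (adjusted p = 0.033). In these bulk samples fewer cells of a kind and less RNA per cell cannot be told apart.

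In AMOT-depleted cells 27 member probes were higher and 22 lower than in the controls at an adjusted p under 0.05, so that 49 of 119 (41.2%) were called, against 35.1% of all tested probes (17.6% higher and 17.5% lower). In YAP-depleted cells 28 were higher and 17 lower (37.8%, against 37.3% of all probes, with 18.5% higher and 18.7% lower). Scaling the arrays to their medians in place of quantile normalisation gave 29 higher and 9 lower. As a whole the members were thus called about as often as other probes, and their median changes of 0.01 and 0.10 were close to those of all probes (-0.02 and -0.01). Counted by gene, with each gene read from its probe with the highest mean, 41 of 90 (45.6%) were called in AMOT-depleted cells, 21 higher and 20 lower, against 41% of all genes (22% higher and 19% lower). In YAP-depleted cells 33 of 90 (36.7%) were called, 21 higher and 12 lower, against 44.2% (24.3% higher and 19.9% lower). The 2 comparisons use the same 3 control arrays, so their values are set side by side without a test of their likeness.

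By family the counts were as follows. Of the 7 DNAH probes, 5 were higher and 1 lower in AMOT-depleted cells, and 4 were higher and 1 lower in YAP-depleted cells. Of the 5 DNAI and DNAL probes, 2 were higher and 1 lower, and then 4 higher and 1 lower. Of the 23 CFAP probes, 7 were higher and 5 lower, and then 5 higher and 3 lower. Of the 22 IFT probes, 1 was higher and 3 lower, and then 1 higher and 4 lower. None of the 4 DYNC2 probes was called in AMOT-depleted cells and 1 was higher in YAP-depleted cells. The 13 BBS probes had 4 higher and 3 lower, and then 3 of each. The 45 CEP probes had 8 higher and 9 lower, and then 10 higher and 5 lower. Dim probes weigh on these counts: 18 member probes were detected on fewer than 3 control arrays, and those that passed the filter through the knockdown arrays had to be higher there. Over the 99 probes detected on all 9 arrays, 19 were higher and 21 lower in AMOT-depleted cells, and 19 were higher and 17 lower in YAP-depleted cells. The share called among all probes so detected was not computed, so whether these counts are unusual cannot be read from them.

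**Figure D1:**
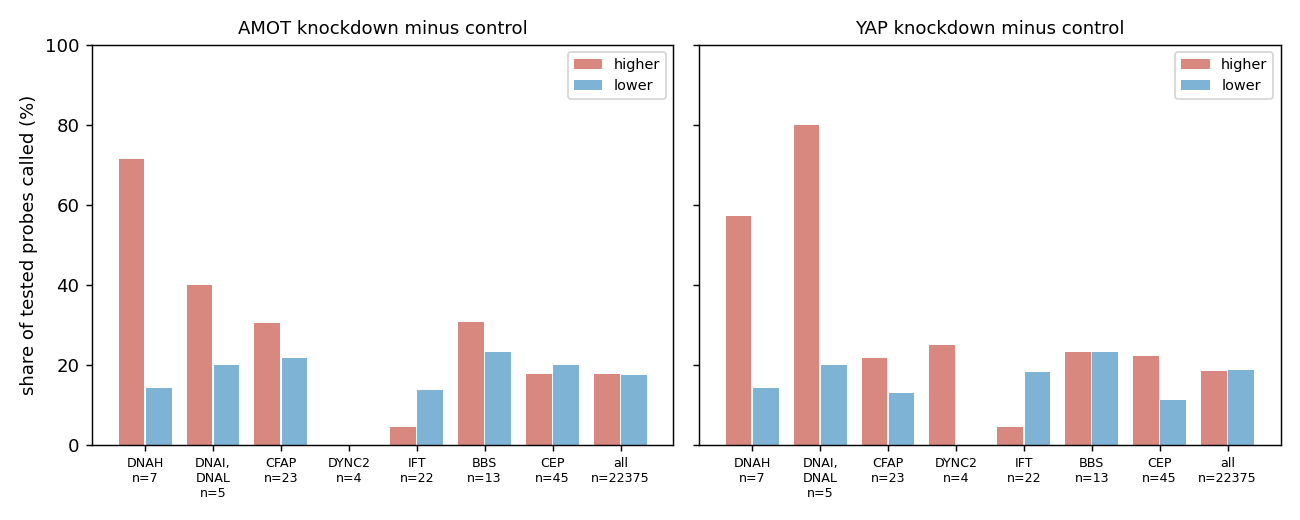
Share of the tested probes of each gene family, and of all 22375 tested probes, that were called higher (red) or lower (blue) than the controls at an adjusted p under 0.05, in percent, for AMOT-depleted cells (left) and YAP-depleted cells (right); n is the number of probes. The DNAH and DNAI/DNAL bars for higher probes stand above those of all probes in both panels but rest on 7 and 5 probes, and the IFT bar for higher probes, 1 of 22, is lower than that of all probes. Among DNAH probes called higher, only that of DNAH1 was detected in a control. Those of DNAH14 and DNAH6, and DNALI1 in the right panel, passed the detection filter through the knockdown arrays alone and had to be higher there. DNAI7 was detected on 1 control array and met the filter only with the knockdown arrays.

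The axonemal dynein heavy chains are the motor subunits of the arms, and 3 of them were measured. DNAH6 (chr2:84459572-84819589, GRCh38.p14), an inner-arm heavy chain, was detected on no control array by probe ILMN_1858762, whose control levels were 5.66, 5.18 and 5.76. Its levels were 7.84, 7.91 and 7.88 in AMOT-depleted cells and 7.17, 7.01 and 6.59 in YAP-depleted cells, so that the 3 groups did not overlap. The signal was at least 3.80-fold higher in AMOT-depleted cells and at least 1.97-fold higher in YAP-depleted cells, the bound being taken against the end of detection in the controls. AMOT-depleted cells also lay above YAP-depleted cells by 0.95 ± 0.18 (log2 difference ± SE, adjusted p = 0.0067). The other DNAH6 probe, ILMN_1890587, was at 5.74, 6.002 and 5.80 in the controls, 6.33, 6.84 and 6.18 in AMOT-depleted cells and 5.80, 6.25 and 6.55 in YAP-depleted cells. Its changes of 0.60 and 0.35 did not pass the threshold (adjusted p = 0.055 and 0.23). ILMN_1858762 passed the detection filter through the knockdown arrays alone and had to be higher there. Its change from the controls is therefore a bound, given as a description, and its difference from that of the other probe has no exact size.

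DNAH1 (chr3:52310920-52400492), another inner-arm heavy chain, was at 7.35, 7.14 and 7.39 in the controls. It was at 8.52, 8.71 and 8.22 in AMOT-depleted cells and at 8.27, 8.38 and 8.23 in YAP-depleted cells. Both knockdowns lay above every control array, by 1.19 ± 0.13 (2.28-fold, adjusted p = 0.00016) and 1.00 ± 0.13 (2.00-fold, adjusted p = 0.00042), and they overlapped each other (difference 0.19, 95% interval -0.11 to 0.49).

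RFX transcription factors bind the X-box, an inverted repeat found in promoters of many ciliary genes, and the promoter windows of DNAH6 and DNAH1 in the RefSeq table (250 bases before to 50 after an annotated start, GRCh38.p14) each held a match to it. Both windows lie at starts inside the outermost gene bounds given above. The windows are shown because these heavy chains were higher in both knockdowns, DNAH6 by a probe that had to be. X-box matches are in capitals and the gene's own strand is printed 5′ to 3′.
DNAH6 promoter, chr2:84516248-84516547: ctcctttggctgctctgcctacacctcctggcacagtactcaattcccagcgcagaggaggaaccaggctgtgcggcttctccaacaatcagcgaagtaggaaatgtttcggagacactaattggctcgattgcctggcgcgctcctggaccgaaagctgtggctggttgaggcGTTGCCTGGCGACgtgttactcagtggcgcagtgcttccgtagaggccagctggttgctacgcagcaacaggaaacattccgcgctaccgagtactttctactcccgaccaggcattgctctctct
DNAH1 promoter, chr3:52316069-52316368: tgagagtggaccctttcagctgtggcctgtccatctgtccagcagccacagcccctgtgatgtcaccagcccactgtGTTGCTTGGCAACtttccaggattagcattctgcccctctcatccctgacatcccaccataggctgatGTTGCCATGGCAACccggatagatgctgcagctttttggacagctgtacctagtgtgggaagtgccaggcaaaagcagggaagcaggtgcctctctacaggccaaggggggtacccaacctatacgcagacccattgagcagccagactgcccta
In DNAH6 63 bases separate the match from the start. DNAH1 held 2 matches, the nearer of them 91 bases before the start. A match is a description of letters, and binding was not measured.

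DNAH14 (chr1:224929654-225399286), a heavy chain of the same family whose arm is not established, gave opposite directions by probe. Probe ILMN_1779847 was at 8.70, 8.70 and 8.65 in the controls, 8.05, 7.74 and 7.95 in AMOT-depleted cells and 7.71, 7.57 and 7.86 in YAP-depleted cells. It fell by 0.77 ± 0.11 (adjusted p = 0.00079) and by 0.97 ± 0.11 (adjusted p = 0.0002). Probe ILMN_3264330 was detected on no control array, at 5.72, 5.24 and 5.35, and stood at 8.35, 8.28 and 8.45 in AMOT-depleted cells and at 7.87, 7.42 and 7.55 in YAP-depleted cells. It was at least 5.33-fold and at least 3.17-fold higher, and it was higher in AMOT- than in YAP-depleted cells by 0.75 ± 0.15 (adjusted p = 0.0099). Probe ILMN_3187862 followed the same order of groups. Its levels were 5.30, 5.22 and 5.34, then 7.54, 7.73 and 7.33, then 6.87, 6.64 and 6.41, which made it at least 3.00-fold and at least 1.62-fold higher. Probe ILMN_1677805, also not detected in any control, was at least 1.22-fold higher in AMOT-depleted cells and its change of 0.46 in YAP-depleted cells did not pass (adjusted p = 0.078).

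The 3 DNAH14 probes that were higher passed the detection filter through the knockdown arrays alone, so they had to be higher there and are given as a description. Their changes from the controls are therefore bounds, and no exact size is given for their differences from ILMN_1779847, which was detected on every control array and fell. The 3 probes that were higher were designed on the same RefSeq transcript, and the probe that fell on another. The position of each probe in the gene is not given in the sources used here. Over the 20 nearest measured genes, from MIA3 to LIN9, the median change was 0.30 in AMOT-depleted cells and -0.04 in YAP-depleted cells.

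**Figure D2:**
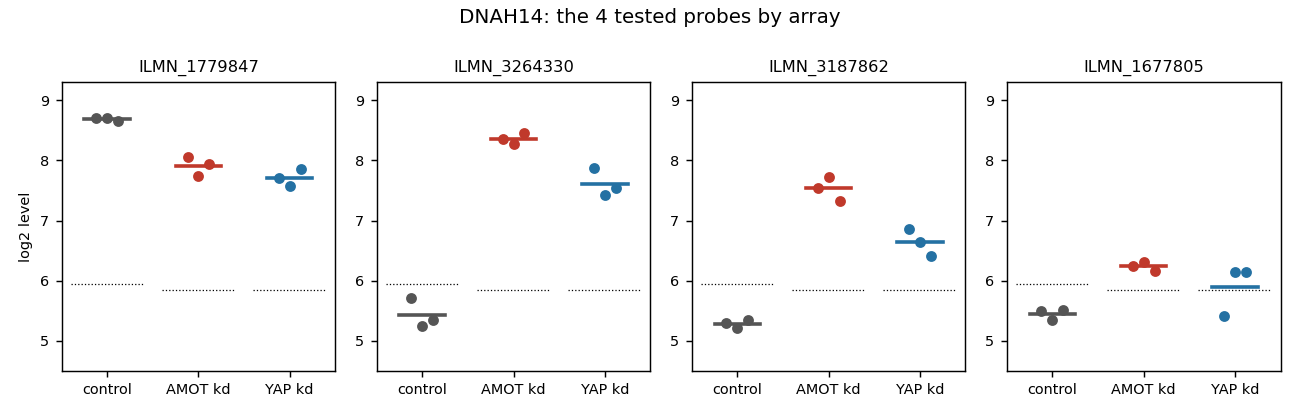
Log2 level of the 4 tested DNAH14 probes on each array (points), with group means (bars), in control (grey), AMOT knockdown (red) and YAP knockdown (blue) cells; dotted lines mark the mean end of detection of each group. ILMN_1779847 is lower in both knockdowns than in the controls, and ILMN_3264330 and ILMN_3187862 lie under the detection line in the controls and above it in both knockdowns.

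Among the other dynein chains, DNAL1 (chr14:73644986-73703732), a light chain of the outer arm, fell. It was at 9.42, 9.33 and 9.36 in the controls, 8.58, 8.64 and 8.66 in AMOT-depleted cells and 7.34, 7.78 and 7.53 in YAP-depleted cells. The 3 groups were fully apart, and YAP-depleted cells were the lowest. DNAL1 fell by 0.74 ± 0.12 with AMOT lowered (adjusted p = 0.0012) and by 1.82 ± 0.12, 3.54-fold, with YAP lowered (adjusted p = 7.7e-06), a difference of 1.08 ± 0.12 between the knockdowns (adjusted p = 0.00044). DNAL4, another axonemal light chain, moved the other way, from 10.95, 10.83 and 10.89 to 11.53, 11.63 and 11.41 and to 11.81, 11.96 and 11.77. Its rises were 0.64 ± 0.10 (adjusted p = 0.0011) and 0.96 ± 0.10 (adjusted p = 9.8e-05). DNAI3, an inner-arm intermediate chain, was at 6.61, 6.29 and 6.66 in the controls, 7.08, 6.75 and 6.76 in AMOT-depleted cells and 7.46, 7.48 and 7.47 in YAP-depleted cells. It rose by 0.95 in YAP-depleted cells (adjusted p = 0.00047), its change of 0.34 in AMOT-depleted cells did not pass (adjusted p = 0.068), and the knockdowns differed by -0.61 (AMOT minus YAP, adjusted p = 0.012).

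DNAI7 and DNALI1 lay near the end of detection. DNAI7 was detected on 1 control array, at 5.86, 6.32 and 5.53, and was at 6.78, 6.54 and 6.80 and at 6.90, 7.42 and 6.43 in the knockdowns. It rose by 0.80 ± 0.26 (adjusted p = 0.036) and 1.01 ± 0.26 (adjusted p = 0.012). DNAI7 met the detection filter only with the knockdown arrays, in which it was higher, so these rises are given as a description. In AMOT-depleted cells the call of DNAI7 was lost when control 1, control 3, any AMOT array or YAP array 1 was left out (adjusted p up to 0.115). DNALI1, the inner-arm light intermediate chain, was not detected in any control and was at least 1.28-fold higher in YAP-depleted cells. This is a description, since DNALI1 passed the detection filter through the knockdown arrays alone and had to be higher there. Its call in YAP-depleted cells was lost without control 1 or control 2 (adjusted p up to 0.0546).

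**Figure D3:**
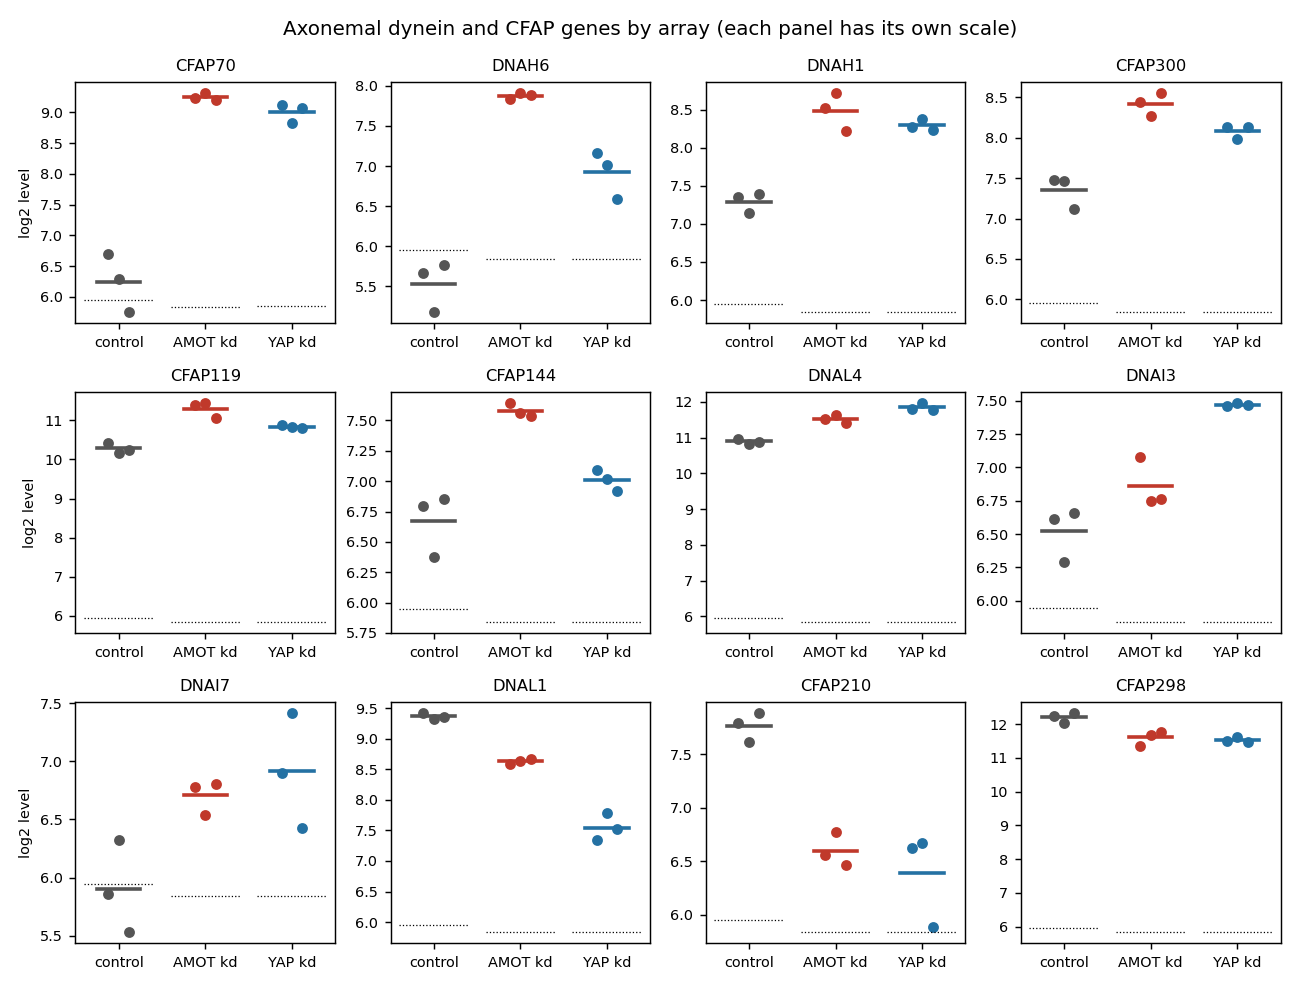
Log2 level of 12 axonemal dynein and CFAP genes on each array (points) with group means (bars), in control (grey), AMOT knockdown (red) and YAP knockdown (blue) cells; dotted lines mark the mean end of detection, each panel has its own scale, and a gene with several probes is shown by its probe with the highest mean. CFAP70, DNAH6 and DNAH1 are higher in both knockdowns than in the controls, and DNAL1, CFAP210 and CFAP298 are lower. DNAH6 is shown by a probe that passed the detection filter through the knockdown arrays alone and had to be higher there.

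CFAP70 (chr10:73253762-73362979), an axonemal protein of motile cilia, rose most among the probes of members that at least 1 control array detected. It was at 6.70, 6.29 and 5.75 in the controls, where 2 of 3 arrays detected it, at 9.23, 9.31 and 9.20 in AMOT-depleted cells and at 9.13, 8.82 and 9.07 in YAP-depleted cells. The gap between controls and knockdowns exceeded the spread within any group. CFAP70 rose by 3.00 ± 0.21 (8.01-fold, adjusted p = 1.1e-05) and 2.76 ± 0.21 (6.79-fold, adjusted p = 1.5e-05), and the knockdowns differed by 0.24 (95% interval -0.22 to 0.70). The 20 nearest measured genes had a median change of 0.20 in AMOT-depleted cells.

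CFAP300, which serves the assembly of dynein arms, was measured by 2 probes. Probe ILMN_1683635 was at 7.20, 7.21 and 6.96 in the controls, 8.23, 8.33 and 8.47 in AMOT-depleted cells and 8.05, 8.27 and 8.13 in YAP-depleted cells. It rose by 1.22 ± 0.11 (adjusted p = 5.7e-05) and 1.03 ± 0.11 (adjusted p = 0.00014), and the other probe by 1.07 and 0.73. CFAP119, needed for the sperm flagellum in mice, went from 10.43, 10.17 and 10.25 to 11.39, 11.44 and 11.07 with AMOT lowered and to 10.88, 10.82 and 10.81 with YAP lowered. It rose by 1.02 ± 0.12 (adjusted p = 0.00022) and 0.55 ± 0.12 (adjusted p = 0.0059). The knockdowns differed by 0.46 (adjusted p = 0.028), a call lost under median scaling and without AMOT array 1 or 2 or any YAP array (adjusted p up to 0.163). CFAP144, which lies inside axonemal microtubules, rose by 0.91 ± 0.13 with AMOT lowered (adjusted p = 0.00069), from 6.79, 6.38 and 6.85 to 7.64, 7.56 and 7.54. With YAP lowered it was at 7.09, 7.02 and 6.92, a change of 0.34 that did not pass (adjusted p = 0.072).

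CFAP43 and CFAP44, which tether an inner dynein arm in Tetrahymena and are needed for sperm flagella, rose in AMOT-depleted cells by 0.84 and 0.74 (adjusted p = 0.02 for each). These were unsteady calls. That of CFAP43 was lost without control 3 or AMOT array 1 or 2 (adjusted p up to 0.07), and that of CFAP44 without control 1 or 3 or AMOT array 1 or 2 (adjusted p up to 0.0656). CFAP43 was detected on 1 control array, so it met the detection filter only with the knockdown arrays and its changes are given as a description. In YAP-depleted cells its change of 0.67 passed narrowly (adjusted p = 0.048) and was lost in 8 of 16 alternatives, among them those without control 2 or 3, AMOT array 1 or 2 or YAP array 2 or 3 (adjusted p up to 0.157), whereas CFAP44 changed by 0.21 (adjusted p = 0.46).

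Other CFAP genes fell. CFAP210 (chr2:169645425-169694405), which lines the inside of axonemal microtubules, was at 7.79, 7.61 and 7.89 in the controls, 6.56, 6.77 and 6.47 in AMOT-depleted cells and 6.63, 6.67 and 5.89 in YAP-depleted cells. Every knockdown array lay below the controls, by 1.16 ± 0.20 (adjusted p = 0.0017) and 1.37 ± 0.20 (adjusted p = 0.00064). CFAP298, another protein needed for dynein arm assembly, fell from 12.25, 12.05 and 12.33 to 11.35, 11.69 and 11.78 and to 11.49, 11.61 and 11.48, by 0.60 ± 0.13 (adjusted p = 0.0065) and 0.68 ± 0.13 (adjusted p = 0.0031). CFAP20, of the doublet microtubules, fell by 0.41 in AMOT-depleted cells (adjusted p = 0.0093). CFAP184 fell by 0.48 and 0.40 (adjusted p = 0.017 and 0.033), and both calls were lost without control 3, under median scaling, without background correction and with the authors' normalized values, that of AMOT-depleted cells also without AMOT array 2 and that of YAP-depleted cells also without YAP array 1 (adjusted p up to 0.103 and 0.22). The remaining CFAP genes, other than CFAP97 described with the knockdown difference, were not called in either knockdown. Without background correction the changes of dim members shrank: CFAP70 was then at 1.79 and 1.60 and CFAP210 at -0.59 and -0.67, all still called. DNAH6, read by the probe that had to be higher, was then at 1.09 and 0.58. The promoter window of CFAP210 is printed because it holds an X-box match and the gene fell.
CFAP210 promoter, chr2:169694356-169694655: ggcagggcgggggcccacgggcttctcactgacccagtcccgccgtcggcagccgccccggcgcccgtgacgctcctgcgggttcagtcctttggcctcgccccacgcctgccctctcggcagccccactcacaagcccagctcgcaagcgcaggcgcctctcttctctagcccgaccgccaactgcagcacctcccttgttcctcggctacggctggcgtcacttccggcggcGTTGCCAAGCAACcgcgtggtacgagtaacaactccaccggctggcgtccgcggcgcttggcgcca

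Intraflagellar transport trains consist of the IFT-B complex, which moves outward with kinesin, and IFT-A, which serves the return with the dynein-2 motor. IFT56 (chr7:139133778-139191986), an IFT-B subunit, fell in both knockdowns. It was at 10.31, 10.39 and 10.51 in the controls, 9.56, 9.52 and 9.47 in AMOT-depleted cells and 9.23, 9.27 and 9.39 in YAP-depleted cells, with no overlap between any groups. It fell by 0.89 ± 0.09 (adjusted p = 0.00012) and by 1.11 ± 0.09 (adjusted p = 3.2e-05), and the difference of 0.22 between the knockdowns did not pass (adjusted p = 0.15).

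IFT57, also of IFT-B, was at 9.84, 9.80 and 9.67 in the controls, 9.86, 9.82 and 9.82 in AMOT-depleted cells and 9.40, 9.14 and 9.16 in YAP-depleted cells. It fell by 0.53 ± 0.10 with YAP lowered (adjusted p = 0.0029), its change with AMOT lowered was 0.06 (95% interval -0.17 to 0.29), and the difference of 0.60 between the knockdowns passed (adjusted p = 0.0041, lost under median scaling at 0.0666). IFT70A and IFT70B, near-identical copies of another IFT-B subunit whose probes may bind each other's transcripts, fell by 0.53 and 0.47 in YAP-depleted cells (adjusted p = 0.025 and 0.0076). That of IFT70A was lost without control 2, control 3 or any YAP array (adjusted p up to 0.0822) and under median scaling (0.213), and that of IFT70B under median scaling (0.156). IFT25 and IFT46, also IFT-B, fell by 0.45 and 0.42 in AMOT-depleted cells (adjusted p = 0.0099 and 0.02), the latter lost without control 1 or AMOT array 1 or 3 and under median scaling (adjusted p up to 0.0746). In YAP-depleted cells both were at -0.13 and did not pass.

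IFT140 (chr16:1510427-1612072), of IFT-A, was detected on the 3 YAP knockdown arrays and on none of the other 6. Its levels were 5.17, 5.14 and 5.62 in the controls, 5.54, 5.47 and 5.57 in AMOT-depleted cells and 6.38, 6.18 and 6.36 in YAP-depleted cells. It was at least 1.28-fold higher in YAP-depleted cells than in the controls and at least 1.38-fold higher than in AMOT-depleted cells. These values are a description, since IFT140 passed the detection filter through the YAP arrays alone, had to be higher there, and was not tested once any YAP array was left out. IFT122, of the same complex, rose by 0.44 ± 0.11 in AMOT-depleted cells by probe ILMN_1742379 (adjusted p = 0.012), and its other probe changed by 0.25 (adjusted p = 0.14). Of the 17 IFT genes, 4 (23.5%) were called in AMOT-depleted cells and 5 (29.4%) in YAP-depleted cells, against 41% and 44.2% of all genes. The others lay between -0.28 and 0.35 in AMOT-depleted cells, each by its probe with the highest mean.

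Of the dynein-2 subunits, the heavy chain DYNC2H1 was at 0.34 and 0.22 (adjusted p = 0.051 and 0.17) and the light intermediate chain DYNC2LI1 at -0.27 and -0.14 (adjusted p = 0.11 and 0.43). The intermediate chain DYNC2I1 rose by 0.43 ± 0.10 in YAP-depleted cells, from 9.75, 9.73 and 9.58 to 10.10, 10.15 and 10.09 (adjusted p = 0.008). DYNC2I2, the other intermediate chain, differed by -0.49 between the knockdowns (AMOT minus YAP, adjusted p = 0.042), which was lost without AMOT array 1 or 2 or any YAP array (adjusted p up to 0.13). IFT20, another IFT-B subunit, differed by -0.44 (adjusted p = 0.035) and lost that call without the same arrays (adjusted p up to 0.112). IFT20 lies on chromosome 17 (chr17:28328326-28335472) in a stretch where 10 of the 20 nearest measured genes were lower and 1 higher in AMOT-depleted cells, with a median of -0.35. IFT20 itself changed by -0.17 there (adjusted p = 0.33), and the part of the stretch in its value was not tested.

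**Figure D4:**
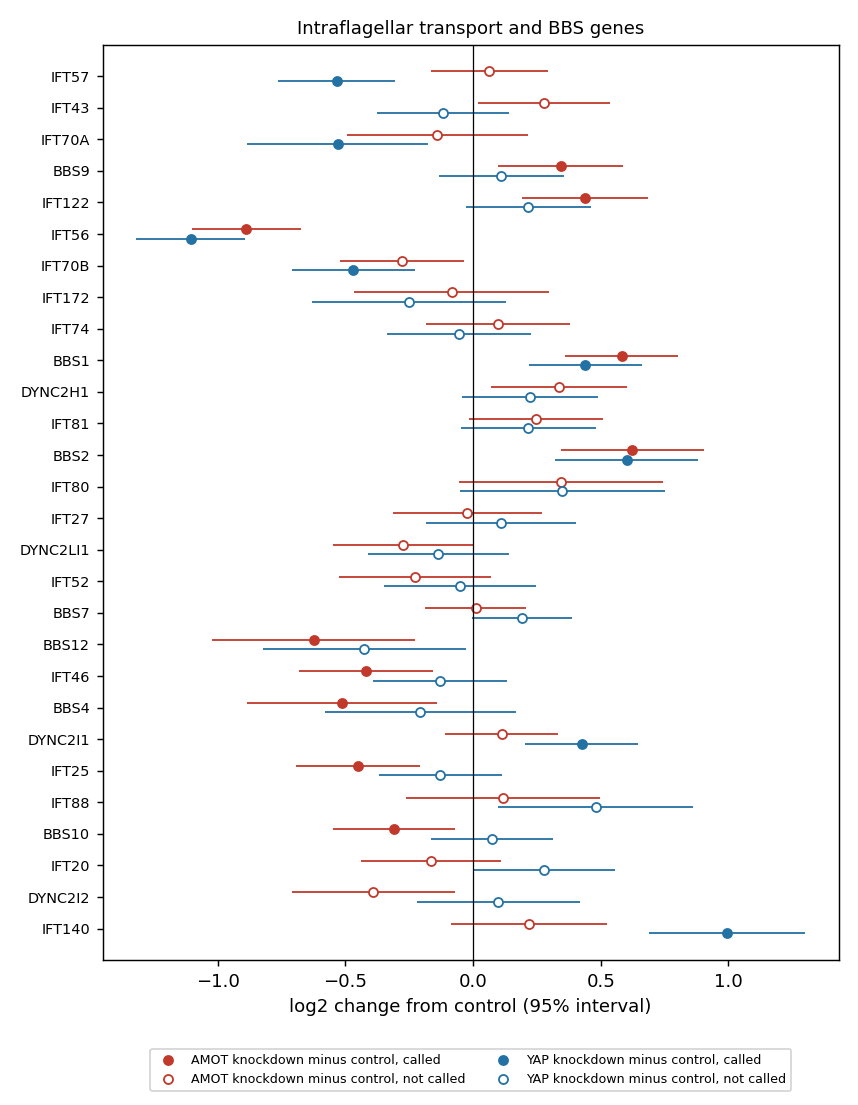
Log2 change from the controls, with its 95% interval, of the IFT, DYNC2 and BBS genes in AMOT-depleted cells (red) and YAP-depleted cells (blue), each gene by its probe with the highest mean, ordered by the difference between the knockdowns; filled points passed an adjusted p of 0.05 and open points did not. IFT56 is lower in both knockdowns, BBS1 and BBS2 are higher in both, and IFT57 is among the genes called in YAP-depleted cells alone. IFT140 passed the detection filter through the YAP arrays alone and had to be higher there, so its point and interval are a description.

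BBS1 and BBS2, subunits of the BBSome, rose in both knockdowns. BBS1 was at 9.45, 9.50 and 9.49 in the controls, 10.03, 10.03 and 10.12 in AMOT-depleted cells and 9.75, 9.99 and 10.01 in YAP-depleted cells, and rose by 0.58 ± 0.10 (adjusted p = 0.0017) and 0.44 ± 0.10 (adjusted p = 0.0068). BBS2 probe ILMN_1767612 was at 10.88, 11.01 and 10.74, then 11.67, 11.32 and 11.51, then 11.48, 11.60 and 11.36. It rose by 0.62 and 0.60 (adjusted p = 0.0039 and 0.0044), the former lost under median scaling (0.076). The other BBS2 probe rose by 0.35 and 0.60 (adjusted p = 0.047 and 0.0034), and its call in AMOT-depleted cells was lost in 11 of 17 alternatives, among them those without control 2 or 3 or any AMOT array. Changes of the BBSome subunits BBS4 (-0.51) and BBS9 (0.34) and of the chaperonin-like BBS10 (-0.31) and BBS12 (-0.62), which serve BBSome assembly, passed in AMOT-depleted cells at adjusted p from 0.022 to 0.047. Each of these 4 calls was lost in 4 or more alternatives (adjusted p up to 0.207), with control or AMOT arrays left out among them: BBS4 without control 1 or 3, AMOT array 2 or 3 or YAP array 1 or 2, BBS9 without control 2 or 3 or AMOT array 1 or 2, BBS10 without control 2 or 3, AMOT array 1 or 2 or any YAP array, and BBS12 without control 1 or 2 or AMOT array 1, and none of the 4 passed in YAP-depleted cells.

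BBS7 (chr4:121824329-121870474), another BBSome subunit, was read by 5 probes of 2 RefSeq transcripts. In AMOT-depleted cells none of the 5 was called. In YAP-depleted cells the probes ILMN_1703111 and ILMN_2377056, of 1 transcript, fell. ILMN_1703111 went from 8.93, 9.28 and 8.75 in the controls to 8.03, 8.05 and 8.11, a fall of 0.92 ± 0.14 (adjusted p = 0.00079), and ILMN_2377056 from 7.13, 7.50 and 7.33 to 6.39, 6.79 and 6.76, a fall of 0.67 ± 0.18 (adjusted p = 0.015, lost without control 2 or YAP array 1 and under median scaling, at up to 0.0887). Of the 3 probes of the other transcript, ILMN_2257833 went from 10.87, 10.83 and 10.82 to 11.09, 11.02 and 10.98, a change of 0.19 (95% interval -0.01 to 0.39), ILMN_1775012 changed by 0.01 and ILMN_1776656 by -0.32 (adjusted p = 0.049, lost in 11 of 17 alternatives). The changes of ILMN_2257833 and ILMN_1703111 differed by 1.12 ± 0.16 (adjusted p = 0.00093), and 3 other pairs of BBS7 probes differed as well, by 0.93, 0.86 and 0.51. Of these, the pair at 0.51 lies within 1 transcript.

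Same-gene probes were compared for all 41 pairs of the 21 members with more than 1 tested probe. The changes differed in 8 pairs (19.5%) in AMOT-depleted cells, against 11.9% of all 4670 pairs, and in 10 pairs (24.4%) in YAP-depleted cells, against 13.9%. In AMOT-depleted cells 6 of the 8 were DNAH14 pairs, 1 was DNAH6 and 1 was CEP19, and in YAP-depleted cells 6 of the 10 were DNAH14 and 4 were BBS7. The DNAH14 and DNAH6 pairs each hold a probe undetected in all controls, so the pairs of probes measured in the controls that differed were those of CEP19 and BBS7. Calls in opposite directions occurred in 3 and 2 pairs (7.32% and 4.88%, against 1.71% and 2.27% of all pairs), and these were DNAH14 pairs. The differences between the knockdowns disagreed in 1 pair (2.44%, against 1.39%), ILMN_2257833 and ILMN_1703111 of BBS7, by -0.85. CEP19, which brings transport trains to the basal body, was at 0.64 from probe ILMN_2288483 and at -0.29 from ILMN_1873107 in AMOT-depleted cells. Neither passed alone, and their difference of 0.93 ± 0.27 did narrowly (adjusted p = 0.046). A further CEP19 probe, ILMN_1665217, was at -0.40 and did not pass. Its difference of 1.04 ± 0.31 from ILMN_2288483 did not pass either (adjusted p = 0.054). With detection p under 0.01 demanded on all 9 arrays, 2 member pairs differed in AMOT-depleted cells and 6 in YAP-depleted cells. That filter removes the DNAH14 and DNAH6 pairs named above, so both counts include pairs that did not differ in the main run.

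Among the CEP genes, CEP112 (chr17:65635537-66192133), a coiled-coil protein of the centrosome, rose the most. It was at 5.78, 6.68 and 6.21 in the controls, where 2 of 3 arrays detected it, at 7.54, 7.67 and 7.44 in AMOT-depleted cells and at 7.82, 7.83 and 7.68 in YAP-depleted cells. The knockdown arrays all lay above the controls, by 1.33 ± 0.19 (adjusted p = 0.00073) and 1.55 ± 0.19 (adjusted p = 0.00027). CEP135, a component of the cartwheel on which centrioles form, rose from 10.11, 10.06 and 9.94 to 10.53, 10.71 and 10.52 and to 10.93, 10.72 and 10.92, by 0.55 ± 0.10 (adjusted p = 0.0033) and 0.82 ± 0.10 (adjusted p = 0.00032). CEP128, of the subdistal appendages of the mother centriole, rose from 8.67, 8.73 and 8.77 to 9.28, 9.35 and 9.34 and to 9.39, 9.58 and 9.36, by 0.60 ± 0.09 (adjusted p = 0.0011) and 0.72 ± 0.09 (adjusted p = 0.00036). CEP41, needed for glutamylation of axonemal tubulin, rose by 0.51 and 0.60 by 1 probe (adjusted p = 0.0027 and 0.0011) and by 0.40 and 0.59 by the other. The call for the rise of 0.40 was lost in 6 of 17 alternatives (adjusted p up to 0.129), among them those without control 1 or 3 or AMOT array 1 or 3. CEP57, of the material around the centrioles, rose by 0.55 and 0.50 (adjusted p = 0.0065 and 0.01), both lost under median scaling (adjusted p = 0.127 and 0.0654).

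Other CEP genes fell. CEP78, a centriole protein mutated in cone-rod dystrophy with hearing loss, fell in AMOT-depleted cells by both probes. Probe ILMN_3185161 was at 10.53, 10.36 and 10.32 in the controls, 9.67, 9.49 and 9.36 in AMOT-depleted cells and 10.07, 9.997 and 9.99 in YAP-depleted cells, and fell by 0.90 ± 0.11 with AMOT lowered (adjusted p = 0.00024) and by 0.38 ± 0.11 with YAP lowered (adjusted p = 0.02, lost without control 1 or YAP array 2 or 3 and under median scaling, at up to 0.0929). The other probe fell by 0.68 ± 0.10 with AMOT lowered (adjusted p = 0.00086), its change of -0.18 with YAP lowered did not pass (adjusted p = 0.19), and the knockdowns differed by -0.51 and -0.49 (adjusted p = 0.011 and 0.01). CEP57L1, a relative of CEP57, went from 8.01, 7.98 and 8.20 to 7.47, 7.21 and 7.48 with AMOT lowered, a fall of 0.68 ± 0.11 (adjusted p = 0.0013), and was at 7.86, 7.94 and 7.84 with YAP lowered, where the change of -0.18 did not pass (adjusted p = 0.22).

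CEP170 (chr1:243124428-243255785), of the subdistal appendages, fell in YAP-depleted cells. Probe ILMN_2294684 went from 7.90, 8.43 and 8.23 to 7.23, 7.41 and 7.64, a fall of 0.76 ± 0.16 (adjusted p = 0.0055). Probe ILMN_1755290 fell by 1.11 ± 0.31 (adjusted p = 0.018), which was lost without control 2 or 3 or YAP array 1 or 2 (adjusted p up to 0.0645), and probe ILMN_2329885 changed by -0.59 (adjusted p = 0.087). CEP55, of the midbody at which daughter cells part, went from 12.20, 12.22 and 12.21 to 11.88, 11.85 and 11.92 with YAP lowered, a fall of 0.33 ± 0.10 (adjusted p = 0.028) that was lost when any 1 of the control or YAP arrays was left out (adjusted p up to 0.0749) and under median scaling (0.123). Beside it, of 26 genes of mitosis and the G2/M transition, 10 were lower and none higher in YAP-depleted cells (38.5% called, median -0.19). Of all genes 19.9% were lower and 24.3% higher there (44.2% called). In AMOT-depleted cells 4 of the 26 were higher and 2 lower (23.1%, median 0.03), against 22% of all genes higher and 19% lower (41% called). The part of cell division in the CEP values was not tested.

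**Figure D5:**
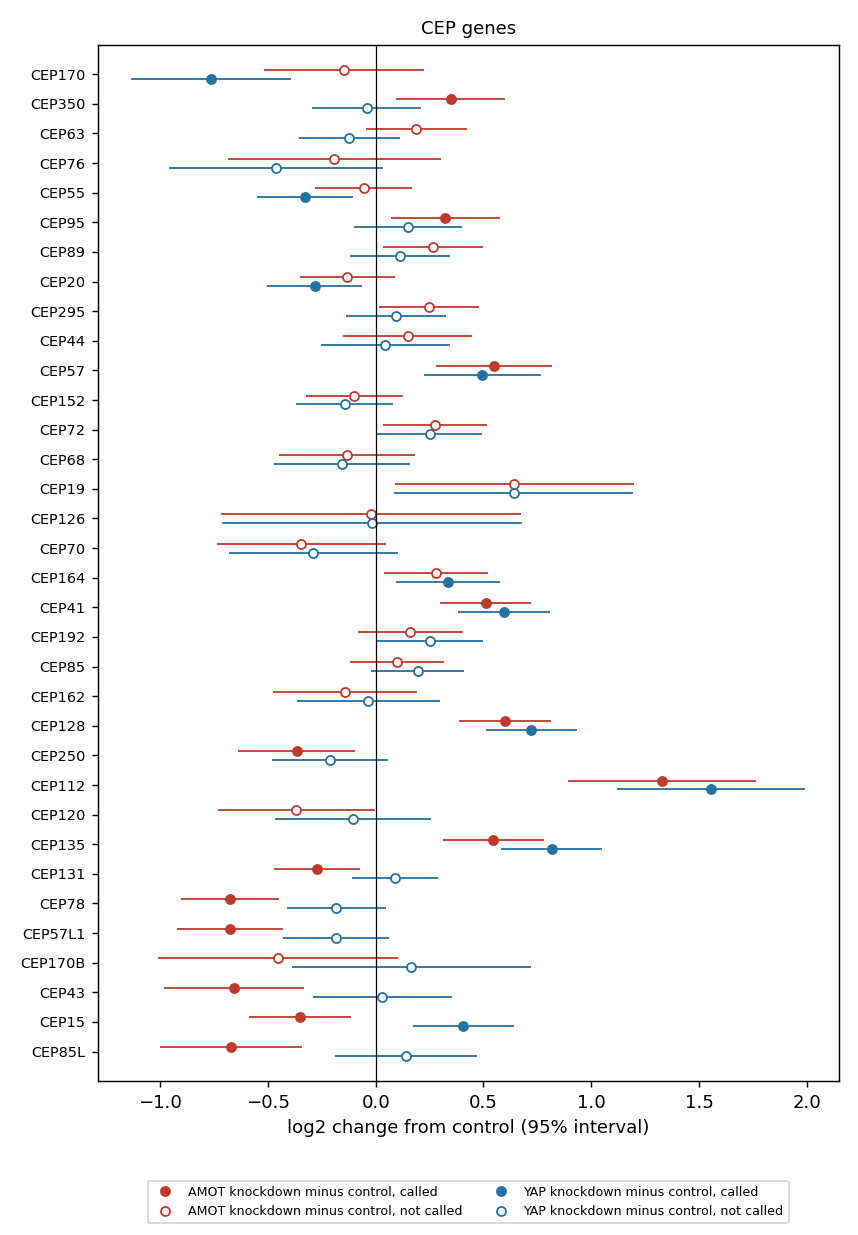
Log2 change from the controls, with its 95% interval, of the 34 CEP genes in AMOT-depleted cells (red) and YAP-depleted cells (blue), each by its probe with the highest mean, ordered by the difference between the knockdowns; filled points passed an adjusted p of 0.05 and open points did not. CEP112, CEP128, CEP135, CEP41 and CEP57 are higher in both knockdowns, CEP15 is called in opposite directions, and CEP170 is lower in YAP-depleted cells.

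Compared directly, AMOT-depleted cells had 12 member probes higher and 16 lower than YAP-depleted cells (23.5%, against 17.4% of all probes, with 8.61% higher and 8.84% lower). By gene 8 were higher and 12 lower, 20 of 90 in all (22.2%, against 22.3%, with 10.3% higher and 12% lower). Among the called probes the highest differences were those of DNAL1 (1.08), DNAH6 (0.95) and the DNAH14 probes ILMN_3187862 (0.89 ± 0.14, adjusted p = 0.0026) and ILMN_3264330 (0.75). At the other end stood CFAP97 (-0.93), a protein with a ciliary name whose role is little known, the 3 probes of CEP85L (-0.65 to -0.85), a centrosome protein of migrating neurons, IFT140 (at least 1.38-fold lower), the 2 probes of CEP15 (-0.76 and -0.67) and CEP43 (-0.69), a basal body protein. CFAP97 was at 8.52, 8.59 and 8.31 in the controls, 7.46, 7.84 and 7.88 in AMOT-depleted cells and 8.66, 8.71 and 8.59 in YAP-depleted cells. It fell by 0.75 ± 0.13 with AMOT lowered (adjusted p = 0.002) and its change of 0.18 with YAP lowered did not pass (adjusted p = 0.31).

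CEP15 was called in opposite directions in the 2 comparisons with the controls, as 0.617% of all probes were. Probe ILMN_2224486 was at 11.92, 11.84 and 11.92 in the controls, 11.52, 11.60 and 11.51 in AMOT-depleted cells and 12.39, 12.41 and 12.11 in YAP-depleted cells, with no overlap between groups. It fell by 0.35 ± 0.10 (adjusted p = 0.027) and rose by 0.41 ± 0.10 (adjusted p = 0.013), and the knockdowns differed by -0.76 ± 0.10 (adjusted p = 0.0014). The fall was lost without control 1 or 3 or AMOT array 1 or 3 (adjusted p up to 0.0757) and the rise without YAP array 1 (0.0511) and under median scaling (0.103), whereas the difference between the knockdowns passed in every alternative run. Its other probe fell by 0.40 in AMOT-depleted cells (adjusted p = 0.041, lost in 10 of 17 alternatives), was at 0.27 in YAP-depleted cells (adjusted p = 0.15) and differed by -0.67 (adjusted p = 0.0085).

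Promoter windows from the RefSeq table were matched for 83 of the 90 genes. The X-box, searched on both strands as 2 arms with 0 to 3 bases between them, occurred in the windows of 14 of these genes (16.9%), against 1.61% of the 27305 genes in the table. The string GTTGCC, a form of its arm, which 15 of the 16 X-box matches contain, occurred on either strand in 43.4% of member genes against 14.6% of all genes. GGAATG, the core of the site of TEAD factors, through which YAP acts, occurred in 8.43% against 16.7%. Of the 16 X-box matches, 12 lay wholly upstream of the annotated start.

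The genes with an X-box did not share 1 direction. In AMOT-depleted cells 7 of the 14 were higher, 2 lower and 5 not called (median 0.31), and in YAP-depleted cells 6 were higher, 5 lower and 3 not called (median 0.14). DNAH6 counts as higher in both, by a probe that passed the detection filter through the knockdown arrays alone. Of all genes 22% were higher and 19% lower in the former and 24.3% and 19.9% in the latter, with medians of 0.01 and 0.03. CFAP70 and DNAH14 had no match in their windows. These sites, each with flanking bases and the match in capitals, are those of the remaining genes called in the same direction in both knockdowns. CEP112, CEP135, CEP41 and CEP57 rose and CFAP298 fell.
CEP112, chr17:66192287-66192314: caggagcGTCGCCATGGCAACggggccg
CEP112, chr17:66192176-66192203: cgggaacGTCGCCATGGCAACcgcaccg
CEP135, chr4:55948881-55948908: cgctcccGTTACCGGGGCAACcgcggcg
CEP41, chr7:130441155-130441183: gtcccgcGTTGCCCTTGGCAACcattgag
CEP57, chr11:95790263-95790291: cccttcaGTTGCCACTGGCGACaccacta
CFAP298, chr21:32612421-32612449: cttcactGTTGCTCTTGGCAACatccact
The 2 matches of CEP112 have the same letters.

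Other ciliary genes were taken from lists of related complexes, each gene read by its probe with the highest mean. Of all genes 41% were called in AMOT-depleted cells and 44.2% in YAP-depleted cells, with median changes of 0.01 and 0.03. Of 23 transition zone genes, which gate the base of the cilium, 6 were higher and 2 lower in AMOT-depleted cells and 7 higher and 4 lower in YAP-depleted cells (34.8% and 47.8% called, medians 0.05 and 0.08). B9D1 went from 10.66, 10.67 and 10.81 to 9.07, 8.71 and 8.98 and to 9.43, 9.58 and 9.48, falling by 1.79 and 1.22. CC2D2A rose by 1.45 and 1.10 and AHI1 by 1.25 and 1.60, and NEK8 (0.97) and TMEM107 (0.91) rose with YAP lowered. Of 29 genes of ciliary cargo trafficking, 5 were higher and 4 lower and then 7 higher and 5 lower (31% and 41.4% called, medians -0.01 and 0.08). ARL3, a GTPase that releases lipid-bound cargo in the cilium, went from 7.35, 7.32 and 7.51 to 8.93, 9.14 and 8.87 and to 9.23, 9.15 and 9.20, rising by 1.59 and 1.80. DYNLT2B, a dynein-2 light chain, fell by 1.10 and 0.41, and MKKS, a partner of BBS10 and BBS12, rose by 0.53 and 0.85.

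Of 23 further genes of axonemal structure and dynein arm assembly, 3 were higher and 4 lower in AMOT-depleted cells and 5 higher and 4 lower in YAP-depleted cells (30.4% and 39.1% called, medians -0.02 and -0.00). ODAD4, which docks the outer arm, rose by 0.60 and 1.14 and the assembly factor DNAAF9 by 0.59 and 1.02. DNAAF19 fell by 0.59 and 1.00, and DRC3, of the link between doublets, fell by 1.00 with AMOT lowered. Of 38 centriole and satellite genes, 8 were higher and 6 lower and then 10 higher and 4 lower (36.8% called in each, medians -0.00 and 0.12). HAUS7, of the augmin complex, fell by 0.93 and 0.95.

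Of 18 regulators of ciliogenesis, 4 were higher and 1 lower in AMOT-depleted cells and 6 higher and 2 lower in YAP-depleted cells (27.8% and 44.4% called, medians 0.19 and 0.15). Among the RFX factors, RFX1 rose by 0.47 and 0.52 (adjusted p = 0.046 and 0.029) and RFX7 by 0.49 and 0.45 (adjusted p = 0.011 and 0.015). RFX5 rose by 0.28 in AMOT-depleted cells (adjusted p = 0.027). RFX3, a main regulator of ciliary genes, was at 6.78, 6.87 and 6.79 in the controls, 6.56, 6.38 and 6.21 in AMOT-depleted cells and 6.50, 6.71 and 6.67 in YAP-depleted cells. It fell by 0.43 with AMOT lowered (adjusted p = 0.015) and its change of -0.19 with YAP lowered did not pass (adjusted p = 0.22). RFX4 was not detected in any control and was at least 1.25-fold higher in YAP-depleted cells. That value, with any part RFX4 has in the counts above, is a description, since RFX4 passed the detection filter through the knockdown arrays alone. MYB, which acts in multiciliated cell differentiation, differed by -1.23 between the knockdowns (AMOT minus YAP, adjusted p = 0.0025).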

How the data were processed

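Total RNA of 9 samples, 3 per group, was hybridised as biotinylated cRNA to Illumina bead arrays. The deposited probe intensity is linear and not normalized, and a detection p-value stands beside each value, per the file headers. The authors' series matrix holds normalized intensity of 20062 probes by a method not given in the sources used here, and it served only as an alternative. Intensities were corrected and normalised with neqc of limma 3.58.1 in R 4.3.3 (normexp with the detection p-values, offset 16, quantile, log2). Probes detected at p under 0.05 on 3 of 9 arrays were fitted by group with lmFit and eBayes, and limma p-values were adjusted by Benjamini-Hochberg over all 22375 probes of a contrast, or over all 4670 same-gene pairs for the per-array difference of 2 probes. An adjusted p under 0.05 made a call. A fold given as "at least" sets the brighter group against the end of detection where no array of the dimmer group detected the probe.

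Symbols came from the platform annotation of probes in the authors' series matrix, updated through gene numbers. Probes outside that matrix had no symbol here, whatever gene they read. Of the tested probes, 15261 had 1 symbol and 7114 (31.8%) had none. Coordinates and promoters are RefSeq's, GRCh38.p14. Neighbours are the 10 named measured genes on each side. Values in full were given for members with the 12 highest changes per direction and contrast, for those whose probes differed and for those undetected in a group. Genes of other lists were named by a change of at least 0.8, up to 4 per list and contrast, and the RFX genes, AMOT and YAP1 whatever their value, with other named genes chosen after their values were seen. The members and lists were chosen with earlier results of these data known. Normalisation, background correction, probe filters, a replicate block and leaving out each array were tried as alternatives. The number of arrays limits the precision. Probe sequences were not used here.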

Additional observations from a re-analysis of the deposited data

Results flagged for a closer look

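In several members the estimated changes from the controls had opposite signs in the AMOT and YAP knockdowns and the difference between them passed (AMOT minus YAP, limma, adjusted p under 0.05). Some of these changes were near 0, such as 0.03 for CEP43 and -0.04 for CEP350 with YAP lowered and 0.06 for IFT57 with AMOT lowered. The difference was -0.93 for CFAP97 and 0.60 for IFT57. For CEP85L it was -0.81, -0.85 and -0.65 by its 3 probes: ILMN_1793559 was at 8.05, 7.999 and 8.19 in the controls, 7.42, 7.56 and 7.25 in AMOT-depleted cells and 7.99, 8.16 and 8.52 in YAP-depleted cells. For CEP15 it was -0.76 and -0.67 by its 2 probes. CEP43, a basal body protein, differed by -0.69 and was at 8.45, 8.88 and 9.04, then 8.09, 8.18 and 8.13, then 8.85, 8.89 and 8.72. BBS10 differed by -0.38, CEP131, a protein of centriolar satellites, by -0.36 and CEP350 by 0.39. The difference of BBS10 was lost in 8 of 17 alternatives (adjusted p up to 0.11), among them those without AMOT array 1 or 2 or any YAP array. That of CEP131 was lost in 5 of 17 (up to 0.0738), without AMOT array 1 or 3 or YAP array 2 or 3 among them, and that of CEP350 in 10 of 17 (up to 0.355), without control 2 or 3, any AMOT array or YAP array 1 or 2 among them. The difference of CEP85L probe ILMN_1855286 was lost without YAP array 1 (0.0512) and that of IFT57 under median scaling (0.0666). Except for CEP15 probe ILMN_2224486, 1 of the 2 changes from the controls did not pass in each of these probes.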

How the results depend on the processing

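No member call changed direction in any alternative. Of the member calls, 30 of 49 in AMOT-depleted cells, 29 of 45 in YAP-depleted cells and 14 of 28 between the knockdowns passed in every alternative that tested them. Under median scaling 9 member probes, 7 member genes and 2478 of all probes were lower in YAP-depleted cells, and between the knockdowns 5 member probes, 3 member genes and 863 of all probes were higher and 7 member genes lower. Without a detection filter 4 member genes were higher in AMOT- than in YAP-depleted cells. Member pairs that differed numbered 2 in the AMOT and 6 in YAP-depleted cells at detection p under 0.01 on all 9 arrays. Between the knockdowns they numbered 2 without background correction, 2 with the authors' normalized values and 0 with the replicate number as a block. The cause was not tested. Leaving out 1 array gave, between the knockdowns, 1211 to 2008 of all probes higher and 1205 to 2044 lower, 7 to 12 member probes higher and 10 to 17 lower, 4 to 8 member genes higher and 6 to 13 lower, and 0 to 1 pairs. It gave 11 to 16 member probes lower and 6 to 11 pairs in YAP-depleted cells. Same-numbered arrays correlated at -0.131 to 0.0986 in their deviations and 4 of 9 correlated best with their own number, so the numbers were not taken to pair the arrays. With the replicate block 42, 42 and 23 member probes were called. Changes of dim probes were smaller without background correction.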

Other observations

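Genes of neighbouring processes were measured as well, each by its probe with the highest mean. Of 7 Hedgehog pathway genes, whose signalling runs through the primary cilium, 1 was higher and none lower in AMOT-depleted cells, and 4 were higher and 1 lower in YAP-depleted cells (14.3% and 71.4% called, against 41% and 44.2% of all genes). DISP1, which releases the ligand, rose by 0.89 and 1.04. In YAP-depleted cells the co-receptor GAS1 rose by 0.74, the signal transducer SMO rose by 0.47 and KIF7 fell by 0.35, and the target gene GLI1, not detected in any control, was at least 1.29-fold higher. The value of GLI1 and its part in the count of higher genes are a description, since GLI1 passed the detection filter through the knockdown arrays alone.

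Of 19 genes of cytoplasmic dynein 1 and dynactin, the motor of the cell body, 3 were higher and 2 lower and then 4 higher and 3 lower (26.3% and 36.8% called). DYNC1LI2 rose by 0.94 and 1.05, and DYNLL2 fell by 1.20 and by 0.87. Among the mitosis genes, MKI67 rose by 1.07 in AMOT-depleted cells and KIF20A fell by 0.81 and by 0.98. CFAP45, the member left out by the detection filter, was at 5.33, 5.51 and 6.63 in the controls, 5.41, 5.19 and 5.19 in AMOT-depleted cells and 5.26, 5.20 and 5.05 in YAP-depleted cells.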
